A study of Mus musculus with 6 samples.

Results

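The Fat4-Dchs1 and Hippo-YAP genes carry signals between cells at the cell surface and turn them into gene activity in the nucleus. The 10 genes described here were given by name: the atypical cadherins Fat4, Fat1 and Dchs1, the Golgi kinase Fjx1, the coactivators Yap1 (YAP) and Wwtr1 (TAZ), and the target genes Ccn2 (older symbol Ctgf), Ccn1 (Cyr61), Ankrd1 and Amotl2. All 10 were measured, each by 1 row of the array, among 19938 genes in all. They were listed by pathway, not by a cutoff on measured values, although earlier results of these data were known.

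RNA levels were read on Affymetrix gene arrays from whole embryonic mouse kidneys at E14.5. Of the 6 arrays, 3 held RNA of pools labelled Foxd1 null and 3 held RNA of pools of wild type littermates. All embryos came from 3 litters of crosses between Foxd1+/- parents, and each pool joined 2 pairs of kidneys taken from different litters. Foxd1 encodes a forkhead factor of the stromal progenitors of the kidney. The null allele is not described further in the labels, and embryo sex was not determined. Pools share litters, so they are not fully independent.

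Fat4 and Dchs1 are giant cadherins that bind each other across neighbouring cells, and Fjx1 is the vertebrate relative of the fly kinase Four-jointed, which phosphorylates their extracellular repeats. In the embryonic mouse kidney Fat4 is known from the stroma and Dchs1 from the nephron progenitors, and mice without Fat4 accumulate nephron progenitors. In the Hippo pathway the MST and LATS kinases phosphorylate YAP and TAZ and hold them in the cytoplasm; unphosphorylated YAP and TAZ enter the nucleus, bind TEAD factors and raise the transcription of genes such as Ccn1, Ccn2, Ankrd1 and Amotl2. The array measures RNA, and neither the phosphorylation nor the place of YAP and TAZ in the cell was measured.

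Values are the deposited log2 values, and a difference is the mean over the pools labelled Foxd1 null less that over the wild type ones. The test was limma over all 19938 genes with Benjamini-Hochberg adjustment, with a threshold of 0.05 on the adjusted p. Past it, 326 genes were higher under the null label and 153 lower, which is 1.64% and 0.767% of the genes tested, or 2.4% in both directions. The Foxd1 row itself was not lower under its label: it stood between 9.71 and 10.05 in the pools labelled null and between 9.40 and 9.69 in wild type (difference 0.30, standard error (SE) 0.11, adjusted p = 0.246). The row thus goes against the label, or checks nothing if its probes sit outside what the allele removes, and every direction given here is between pools as labelled. Across all genes pool 1 labelled null correlated slightly more closely with the wild type arrays (mean Pearson r 0.9926) than with its own group (0.9921). As checks of the tissue, Pax2 lay between 9.44 and 9.80 over the 6 pools, Wt1 between 9.63 and 10.06, Six2 between 8.70 and 9.28, Gdnf between 7.82 and 8.13, Ret between 7.54 and 8.03, Lhx1 between 6.96 and 8.30 and the podocyte gene Nphs1 between 6.52 and 6.76. Some of these ranges hold a difference by group. Lhx1 was called lower under the null label (-1.18, SE 0.08, adjusted p = 0.000317). Six2 (-0.43, adjusted p = 0.0502) and Ret (0.34, adjusted p = 0.057) did not pass, but their groups did not overlap. Because whole kidneys were pooled, a change in the number of cells of one type and a change in RNA per cell cannot be told apart.

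None of the 10 genes passed the threshold: 0 were called higher and 0 lower, beside 2.4% of all genes called. The differences of 5 lay above 0 and of 5 below 0, with a median of 0.0027 against 0.01 over all genes. The median absolute difference was 0.10, against 0.08 over all genes. An unadjusted p under 0.05 was found for 3 of the 10 (Ccn2, Ccn1 and Fat4), where 14.1% of all genes had one. In the same 3 genes every pool labelled null lay above every wild type pool, and in the other 7 the groups overlapped; 19.5% of all genes had groups without overlap, 11.5% with the null-labelled pools higher and 8.04% with them lower. The 95% interval of the difference lay within a 1.5-fold change in either direction for all 10 genes and within 1.3-fold for 7 of them.

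**Figure D1:**
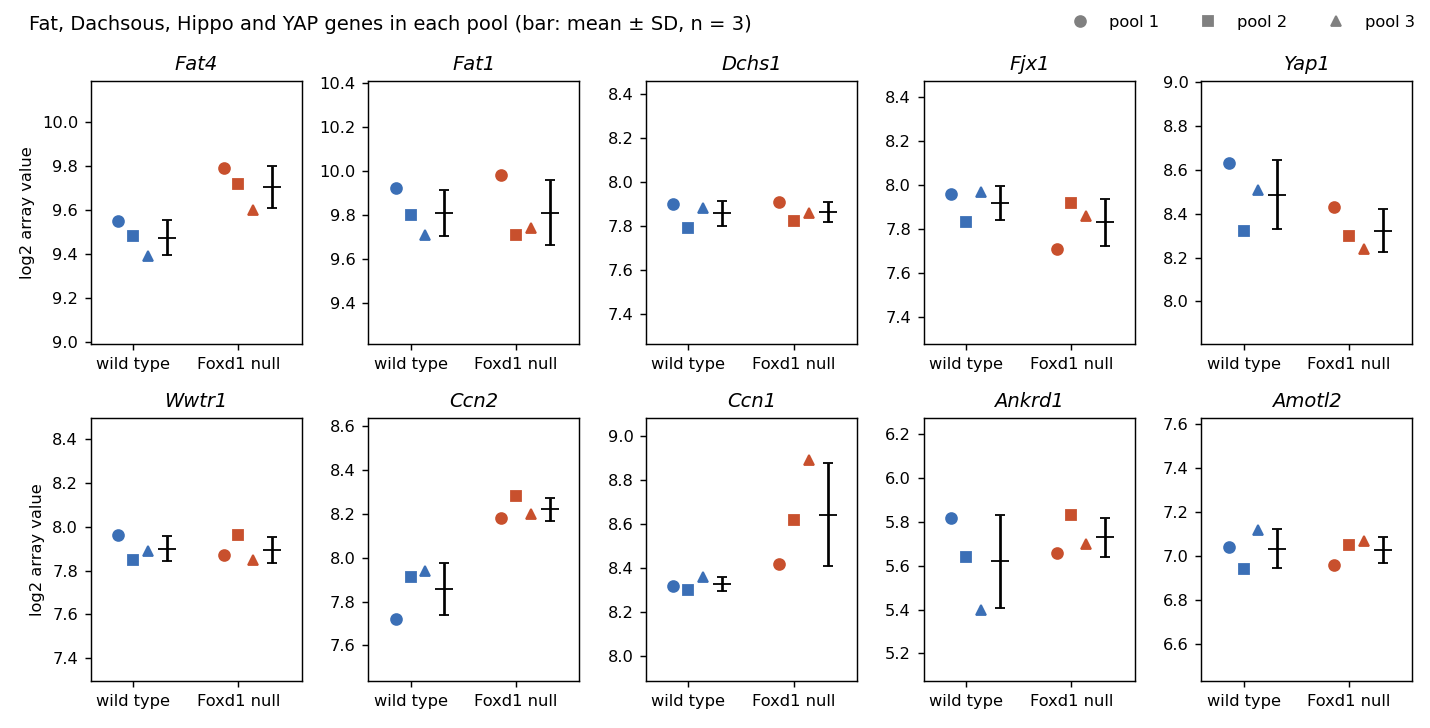
Deposited log2 array value (y axis) of each of the 10 genes in the 3 wild type pools (blue) and the 3 pools labelled Foxd1 null (red); marker shapes give the pool number, bars the mean ± SD (n = 3), and every panel spans the same height. The groups are apart in Fat4, Ccn2 and Ccn1 and overlap in the other 7 panels.

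Among the receptors, Fat4 stood at 9.79, 9.72 and 9.60 in pools 1, 2 and 3 labelled Foxd1 null and at 9.55, 9.48 and 9.39 in wild type pools 1, 2 and 3. The groups did not overlap, but the gap between the lowest null-labelled and the highest wild type pool was 0.04, less than the range within either group (0.19 and 0.17). The difference was 0.23 (SE 0.08, 95% interval 0.05 to 0.41), or 1.17-fold, and it did not pass (adjusted p = 0.23). It lay between 0.19 and 0.28 when any single pool was left out, and it passed in 0 of 15 alternative analyses (adjusted p 0.154 to 0.474).

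Fat1, a Fat cadherin linked to actin assembly at cell contacts and known from podocytes, had 9.98, 9.71 and 9.74 in the pools labelled null and 9.92, 9.80 and 9.71 in wild type. Pool 1 was the highest of its group on both sides, and the groups overlapped over nearly their whole range. The difference was -0.0019 (SE 0.10, 95% interval -0.22 to 0.21), so the data allow between 0.86-fold and 1.16-fold (adjusted p = 0.996).

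Dchs1, the partner of Fat4, had 7.91, 7.82 and 7.86 in the pools labelled null and 7.90, 7.79 and 7.88 in wild type. The groups covered almost the same span. The difference was 0.0073 (SE 0.07, 95% interval -0.15 to 0.17, adjusted p = 0.98), and the interval runs from 0.90-fold to 1.12-fold for the whole kidney. The sign of the difference turned with quantile normalization (-0.02) and median centring (-0.03).

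Fjx1, which acts on the cadherins inside the Golgi, had 7.71, 7.92 and 7.86 in the pools labelled null and 7.96, 7.83 and 7.97 in wild type. Pool 1 labelled null was the lowest of the 6 and the groups overlapped. The difference was -0.09 (SE 0.08, 95% interval -0.28 to 0.10, adjusted p = 0.713), and without that pool it was -0.0279. The ligand, the receptors and the kinase thus gave no difference past the threshold, and of these only Fat4 had separate groups.

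Of the coactivators, Yap1 had 8.43, 8.30 and 8.24 in the pools labelled null and 8.63, 8.32 and 8.51 in wild type. The 2 highest values were wild type pools, but wild type pool 2 lay among the null-labelled ones. The difference of -0.16 (SE 0.10, 95% interval -0.37 to 0.05, 0.90-fold) did not pass (adjusted p = 0.518), and without wild type pool 1 it was -0.09. Wwtr1 had 7.87, 7.96 and 7.85 in the pools labelled null and 7.96, 7.85 and 7.89 in wild type, with complete overlap. Its difference was -0.0038 (SE 0.07, 95% interval -0.17 to 0.16, adjusted p = 0.99), which allows between 0.89-fold and 1.12-fold.

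The target genes are those whose promoters or enhancers YAP and TEAD are known to bind, so their upstream sequences are shown. TEAD factors recognise the core motif GGAATG, and it was searched on both strands (CATTCC on the other) in the 250 bases before each start site, taken from RefSeq on GRCm38.p6. Windows were matched for 7 of the 10 genes (Fat4, Fat1, Yap1, Wwtr1, Ccn1, Ankrd1 and Amotl2), and all but Fat4 held the motif. That is 7 of their 8 windows (Wwtr1 has 2, which overlap), against 4153 of 32851 windows over all genes (12.6%). Capitals mark the motif in the windows of the 3 target genes.
Ccn1 (chr3:145649986-145650235, minus strand): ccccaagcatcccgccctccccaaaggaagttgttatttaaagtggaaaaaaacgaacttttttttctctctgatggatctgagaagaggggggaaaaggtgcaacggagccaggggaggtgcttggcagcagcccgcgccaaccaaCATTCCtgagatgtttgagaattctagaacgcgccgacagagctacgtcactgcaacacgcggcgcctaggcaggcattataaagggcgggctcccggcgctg
Ankrd1 (chr19:36119845-36120094, minus strand): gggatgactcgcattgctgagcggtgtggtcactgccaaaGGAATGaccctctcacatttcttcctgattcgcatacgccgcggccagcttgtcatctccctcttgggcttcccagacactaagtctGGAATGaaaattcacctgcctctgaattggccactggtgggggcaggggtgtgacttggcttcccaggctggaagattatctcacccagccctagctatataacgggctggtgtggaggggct
Amotl2 (chr9:102717554-102717803, plus strand): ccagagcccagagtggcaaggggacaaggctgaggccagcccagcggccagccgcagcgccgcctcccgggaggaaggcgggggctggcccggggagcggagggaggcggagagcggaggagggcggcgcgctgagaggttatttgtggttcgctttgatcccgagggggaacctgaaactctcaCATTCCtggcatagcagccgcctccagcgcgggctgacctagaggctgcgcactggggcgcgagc
Ankrd1 held 2 copies on the strand of the gene, beginning 210 and 123 bases before the start site. Ccn1 and Amotl2 held 1 copy each on the opposite strand, whose first base in the printed order lay 103 and 65 bases before it. A match describes these letters only, and no binding was measured.

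Ccn2, which encodes a secreted matricellular protein of the CCN family, had the largest difference of the 10 genes. It stood at 8.18, 8.28 and 8.20 in the pools labelled null and at 7.72, 7.91 and 7.94 in wild type. The groups were separated by 0.24, and wild type pool 1 was the lowest of the 6. The difference was 0.36 (SE 0.08, 95% interval 0.18 to 0.55), or 1.29-fold, with adjusted p = 0.0556, just outside the threshold. Over all genes 4.6% had a larger absolute difference. Ccn2 passed in 4 of 15 alternatives: with an intensity trend (adjusted p = 0.0416), with the trend and robust variance (0.0292), with array weights (0.0484) and with the filter on low rows (0.0353). Without any single pool it did not pass (adjusted p 0.065 to 0.23), while the difference stayed between 0.29 and 0.41.

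Ccn1, another secreted CCN protein and an immediate-early gene of growth factor and stretch responses, had 8.42, 8.62 and 8.89 in the pools labelled null and 8.32, 8.30 and 8.36 in wild type. The wild type pools lay within 0.05 of each other, whereas the null-labelled pools spread over 0.47, with pool 3 the highest and pool 1 only 0.06 above the highest wild type pool. The difference was 0.32 (SE 0.11, 95% interval 0.07 to 0.56, 1.24-fold, adjusted p = 0.226). Pool 3 labelled null decided much of its size: without it the difference was 0.19 (adjusted p = 0.449), and without pool 1 it was 0.43 (adjusted p = 0.0491).

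Ankrd1, a nuclear ankyrin repeat protein best known from heart and skeletal muscle, had 5.66, 5.83 and 5.70 in the pools labelled null and 5.82, 5.64 and 5.40 in wild type. Wild type pool 3 was the lowest, and without it the difference of 0.11 (SE 0.11, 95% interval -0.13 to 0.35, adjusted p = 0.732) was -0.0024. Ankrd1 was the only 1 of the 10 genes among the lowest 25% of all genes by mean level, below 6.11. Skeletal and cardiac muscle markers also varied between pools: 1 of 14 passed, higher (0 to 3 when 1 pool was left out). Their mean centred level was 0.62, 0.48 and -0.11 in pools 1, 2 and 3 labelled null and -0.82, -0.22 and 0.06 in wild type. In wild type that order was the reverse of the order of Ankrd1, and pool 1 labelled null had the highest muscle level and the lowest Ankrd1 of its group. The part of muscle cells in Ankrd1 was not tested.

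Amotl2, an angiomotin family scaffold that binds YAP and is also its target, had 6.96, 7.05 and 7.07 in the pools labelled null and 7.04, 6.94 and 7.12 in wild type. The difference was -0.0075 (SE 0.08, 95% interval -0.18 to 0.17, adjusted p = 0.98), between 0.88-fold and 1.12-fold. The 4 target genes therefore did not move as 1 block: Ccn2 and Ccn1 lay at 0.36 and 0.32 with separate groups, and Ankrd1 and Amotl2 at 0.11 and -0.0075 with overlapping ones. Differences between the target genes were not tested.

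**Figure D2:**
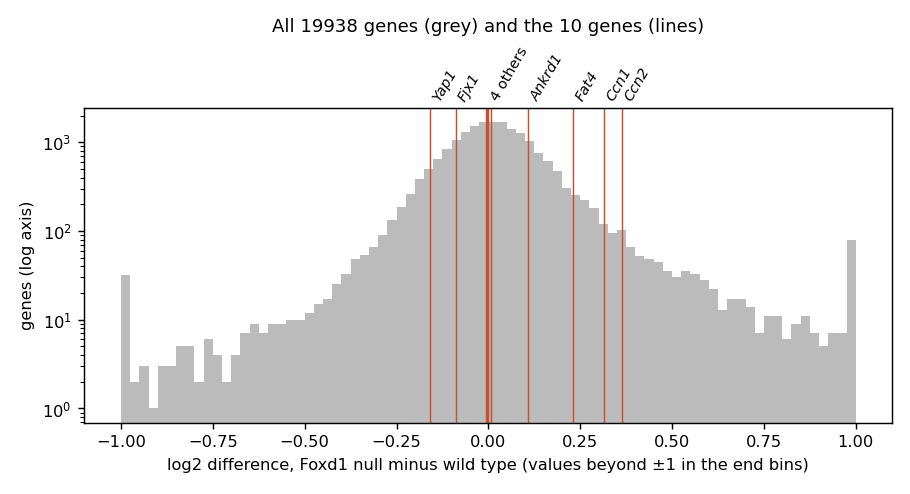
Histogram of the log2 difference (Foxd1 null minus wild type, x axis) of all 19938 genes, with the number of genes on a log axis (y axis) and a line for each of the 10 genes. Fat1, Dchs1, Wwtr1 and Amotl2 stand together at 0 ("4 others"), and Ccn2, Ccn1 and Fat4 lie on the right flank at 0.36, 0.32 and 0.23.

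Other genes of the same pathways were read from 6 lists. Of 17 measured Fat, Dachsous and planar polarity genes, 1 was called higher, 0 lower and 16 did not pass; the list median was 0.003. The 1 that passed was Lix1, whose fly relative Lowfat binds the intracellular parts of Fat and Dachsous. It rose from 6.98, 6.94 and 6.85 in the wild type pools to 7.59, 7.42 and 7.47 in the pools labelled null, by 0.57 (SE 0.08, 1.49-fold, adjusted p = 0.00524). Every null-labelled pool lay above every wild type pool, and Lix1 passed in all 6 fits that leave out 1 pool but not when all rows of the array were tested (0.0507). Its relative Lix1l, named after its value was seen, had 10.51, 10.74 and 11.08 against 10.20, 10.31 and 10.36 (difference 0.49, SE 0.13, adjusted p = 0.0989), and without pool 1 labelled null its adjusted p was 0.0165. Celsr1 and Celsr2, cadherins of planar polarity, also named after their values were seen, both had -0.22 (SE 0.08 each, adjusted p 0.253 and 0.235) with groups that did not overlap. Dchs2 was not among the genes tested here.

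Of 21 measured Hippo kinases and regulators 0 were called in either direction (median -0.0037), and of 8 TEAD factors and Vestigial-like cofactors 0 were called (median 0.03). The largest differences among the first were those of Frmd6, a FERM domain regulator of the pathway, with 0.37 (SE 0.13, adjusted p = 0.244), and of Wwc1 (KIBRA), which promotes LATS activity, with -0.26 (SE 0.07, adjusted p = 0.101). Wwc1 was nonetheless regular across pools: 6.64, 6.62 and 6.63 in those labelled null and 6.94, 6.85 and 6.86 in wild type, so the groups did not overlap. The core kinases Lats1 and Stk4 (MST1) had -0.06 and -0.04 (SE 0.08 each) and were named after their values were seen. Among the second list the cofactor Vgll3 had 0.29 (SE 0.15, adjusted p = 0.453) and Tead1 had 0.17 (SE 0.08, adjusted p = 0.373). Stk3 was not among the genes tested here.

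Of 17 further genes of a YAP and TAZ target signature known from cancer cells, 1 rose, 1 fell and 15 did not pass, with a median of 0.04. Ccdc80, a secreted matrix protein, rose by 0.64 (SE 0.09, 1.56-fold, adjusted p = 0.00538), from 8.89, 8.75 and 8.85 in wild type to 9.40, 9.37 and 9.62. Gadd45a, a stress and growth arrest gene, fell by 0.60 (SE 0.12, adjusted p = 0.0304), from 8.71, 8.60 and 8.42 to 8.07, 7.74 and 8.13. Both had separate groups, but they lay in opposite directions. Gadd45a lost its call without pool 2 labelled null (adjusted p = 0.088) and without wild type pool 1 (0.138) or 2 (0.119). Tgfb2 and Rbms3, named after their values were seen, had 0.54 (SE 0.16, adjusted p = 0.151) and 0.34 (SE 0.10, adjusted p = 0.153); without wild type pool 3 Tgfb2 had 0.76 (adjusted p = 0.00963), and without pool 1 labelled null Rbms3 had 0.45 (adjusted p = 0.0242). Asap1, also named after its values were seen, had -0.27 (SE 0.07, 0.83-fold, adjusted p = 0.0989). The authors' deposited table of 488 probe sets gives it a signed fold of -1.14. That fold is linear and compares group medians, so it is not the same measure as the log2 difference of means. None of the 10 genes stands in that table. Lats2 and Ptpn14 belong both to this list and to that of the kinases.

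The CCN family beyond Ccn1 and Ccn2 held the largest difference of the 6 lists. Of its 4 genes 2 rose, where 1.64% of all genes did, 0 fell and 2 did not pass (median 0.36). Ccn3 (Nov), a secreted member of the family, rose from 6.76, 6.87 and 7.03 in the wild type pools to 8.03, 8.37 and 8.25 in those labelled null. The difference of 1.33 (SE 0.11, 95% interval 1.10 to 1.57, 2.52-fold, adjusted p = 0.000402) passed in every alternative (adjusted p up to 0.0222). Ccn4 (Wisp1) rose from 7.06, 7.09 and 7.27 to 7.78, 7.69 and 7.81, by 0.62 (SE 0.08, 1.54-fold, adjusted p = 0.00471), and missed the threshold only when all rows of the array were tested (0.0504). Ccn5 (Wisp2) and Ccn6 (Wisp3) complete the list with 0.05 and 0.10 (SE 0.07 and 0.09), named after their values were seen. The test of a difference between these genes and Ccn2 or Ccn1 was not made.

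**Figure D3:**
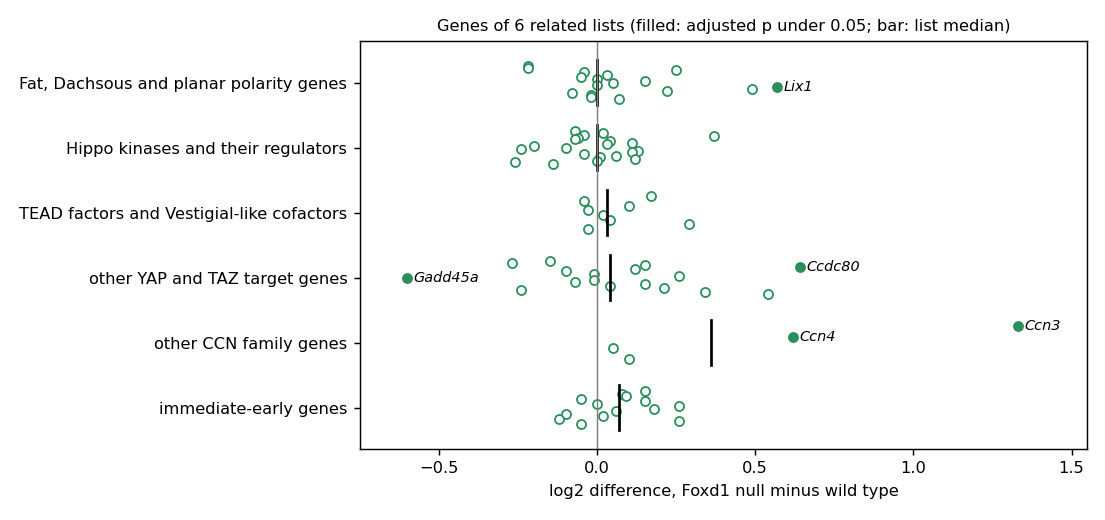
Log2 difference (Foxd1 null minus wild type, x axis) of each gene of 6 related lists (y axis); filled points passed the threshold and bars give the list medians. Ccn3, Ccn4, Ccdc80 and Lix1 lie to the right and Gadd45a to the left, and the lists of Hippo kinases, TEAD factors and immediate-early genes hold open points only.

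**Figure D4:**
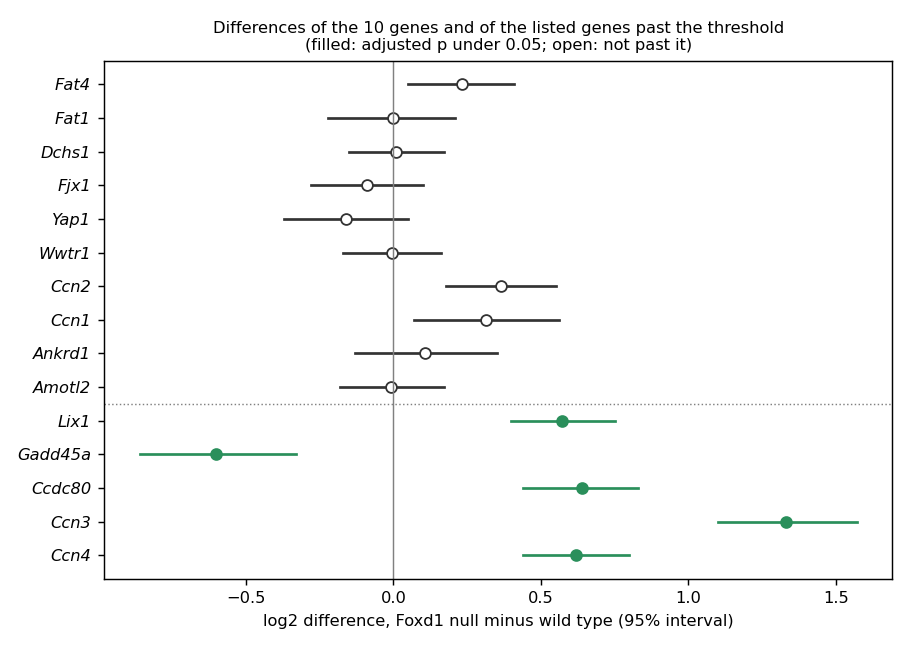
Log2 difference with its 95% interval (x axis) for the 10 genes above the dotted line and, below it, for the 5 listed genes past the threshold. All 10 points above the line are open, and the intervals of Fat4, Ccn2 and Ccn1 exclude 0 before adjustment.

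Of 14 immediate-early genes, which respond within minutes to handling, serum or stretch as Ccn1 does, 0 passed (median 0.07), and the largest differences were those of the nuclear receptor Nr4a1 with 0.26 (SE 0.13, adjusted p = 0.43) and of Fos with 0.26 (SE 0.09, adjusted p = 0.246). Their mean centred level was -0.08, 0.04 and 0.14 in pools 1, 2 and 3 labelled null and -0.02, -0.08 and -0.01 in the wild type pools. The order of the null-labelled pools was that of Ccn1, as it was for the endothelial, macrophage and mural lists given next, and the part of these genes in its values was not tested.

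Markers of several cell types moved with the group labels beside Fat4, Ccn2 and Ccn1. Within the pools labelled null, however, Fat4 was highest in pool 1 and lowest in pool 3 (9.79, 9.72 and 9.60). The smooth muscle, endothelial, macrophage and mural lists were instead lowest in pool 1 of that label. Smooth muscle markers passed in 6 of 8 genes, all higher, and their mean centred level ran from 0.19 to 0.51 in the pools labelled null and from -0.52 to -0.30 in wild type. Endothelial markers passed in 4 of 10, all higher (0.06 to 0.29 against -0.24 to -0.15), macrophage markers in 3 of 9 (0.01 to 0.34 against -0.26 to -0.11) and markers of pericytes and mural cells in 1 of 6 (-0.06 to 0.32 against -0.22 to -0.14). Leaving out each pool in turn, an alternative for these lists chosen after seeing the data, moved these counts. Without wild type pool 2 or 3, 3 smooth muscle markers passed, and 4 without pool 2 or 3 labelled null. The endothelial count was 6 without pool 1 labelled null, 0 without pool 2 and 1 without any other pool, and the mural count was 2 without pool 1. The macrophage count was 5 without pool 1 labelled null, 1 when either pool 2 of that label or wild type pool 1 was left out, and 2 otherwise. Of 7 markers of neurons and glia 1 passed, higher, with 5 past the threshold without pool 1 labelled null and 0 without any other (-0.40 to 0.98 against -0.70 to -0.24). The list of the pretubular aggregate and renal vesicle had 5 of 10 genes lower (4 to 6 when 1 pool was left out; -0.27 to -0.25 against 0.20 to 0.31). Of 5 podocyte markers 1 fell (0 to 1 when 1 pool was left out), Clic5 by 0.49 (SE 0.09, adjusted p = 0.0218).

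Cortical stroma and nephron progenitor markers, which stand for the known sources of Fat4 and Dchs1, had 1 gene higher and 2 lower of 9, and 1 higher and 1 lower of 10. Without pool 1 labelled null these were 2 and 2, and 1 and 3, and without any other pool 1 and 1, and 1 and 0 to 1. Their mean levels overlapped between the groups (0.01 to 0.04 against -0.08 to 0.02, and -0.11 to 0.08 against -0.05 to 0.07). These means join genes that lay in opposite directions, so an overlap does not show unchanged cells. Among the stroma markers Dcn was called higher (1.36), and Aldh1a2 (-0.77) and Ntn1 (-0.36) lower. Among the progenitor markers Osr1 was called higher (0.84) and Cited1 lower (-0.53). Pool 3 labelled null, where Ccn1 was highest, also had the highest levels of the liver list (1.76) and the adrenal cortex list (1.41), and pool 2 that of neurons and glia (0.98). The part of any of these cells in the values of the 10 genes was not tested.

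**Figure D5:**
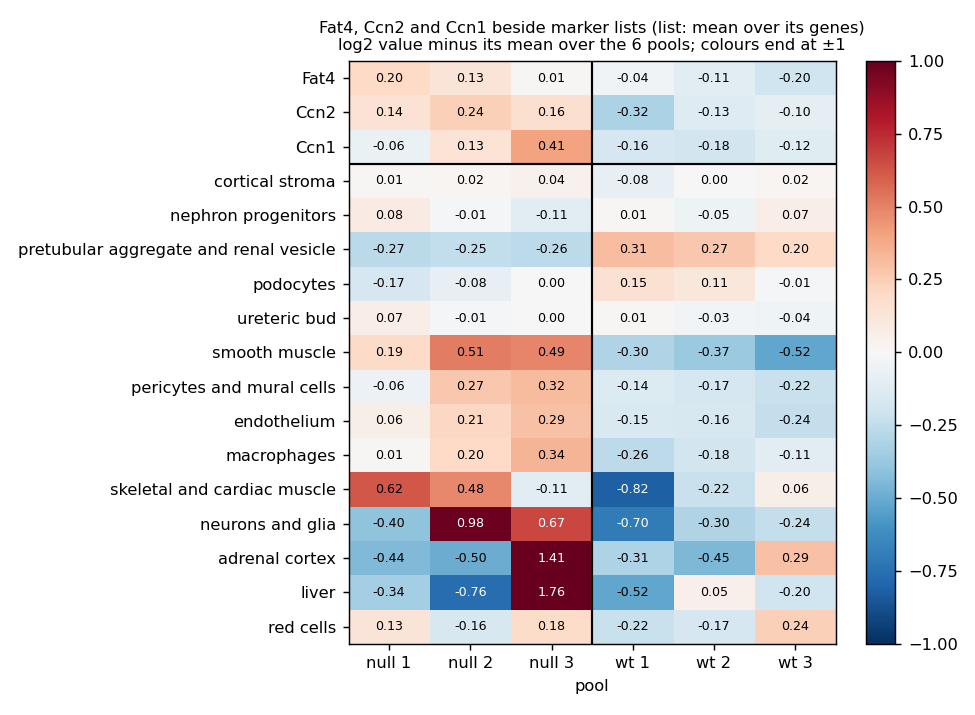
Log2 value minus its mean over the 6 pools for Fat4, Ccn2 and Ccn1 (top) and the mean of the same over the genes of each marker list, by pool (x axis); red is above and blue below the mean, and the colours end at ±1. Smooth muscle, endothelial, mural and macrophage lists are higher in the pools labelled null, while liver and adrenal lists peak in pool 3 labelled null.

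The genes with the profiles closest to those of the 3 largest differences were found by the root mean square gap between profiles over the 6 pools, each centred on its mean. For Ccn2 they were Mir411 (gap 0.035), Igsf10 (0.038) and Mamdc2 (0.041), for Ccn1 Cdrt4 (0.027), Rasa3 (0.040) and Lmna (0.040), and for Fat4 Isl2 (0.026), Kat6b (0.033) and Lurap1l (0.033). The gap is a description of these 6 arrays.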

How the data were processed

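Per the labels' protocols, 50 ng of total RNA per pool was amplified (NuGEN Ovation Pico WTA) and biotin-labelled. The authors deposited log2 array values, one column for each pool. The steps that summarised and normalized them were not given in the sources used here. The log base was read from the values: differences between group medians had a slope of 1.04 on the log2 of the signed folds (a score) in the authors' deposited table. The array medians lay between 6.984 and 7.057, and the number of arrays limits the precision (median SE 0.0859).

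Gene names came from the platform annotation, where of 35556 rows 21789 had 1 symbol, 1621 several and 12146 none. The row with the highest mean was kept per gene (19938 genes), without a filter on level. Groups were compared by lmFit and eBayes of limma 3.58.1 (R 4.3.3; 6 arrays, genotype the only term, two-sided, Benjamini-Hochberg over all genes); p-values come from this fit unless an alternative is named beside them. No p was adjusted over a list alone. The fit was tested on simulated data. Plots were drawn with matplotlib 3.10.9, and tables handled with numpy 2.4.6 and pandas 2.3.3 under Python 3.11.15.

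The 10 genes and the lists were chosen with earlier results of these data known. Named beyond the 10 are the listed genes past the threshold and, where none passed, the 2 with the largest absolute differences; others were named after their values were seen. A list's centred level is the mean over its genes of the log2 value minus that gene's mean over the pools. The 15 alternatives are quantile normalization, median centring, an intensity trend, trend with robust variance, array weights, all rows tested, the mean of a gene's rows, leaving out the lowest 25% of genes, a replicate block and leaving out each pool.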

Additional observations from a re-analysis of the deposited data

How the results depend on the processing

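Of the 10 genes, 1 was called higher with an intensity trend, with the trend and robust variance, with array weights and with the filter on low rows (each time Ccn2), and 0 to 1 when 1 pool was left out (Ccn1, without pool 1 labelled null); 0 were called lower in any of the 15 alternatives. With all 35556 rows of the array tested, 71 were called higher and 37 lower, counted as rows and not as genes. Over all genes, leaving out 1 pool called 127 to 572 higher and 64 to 171 lower, so the gene counts depend on single pools. With all rows tested, 0 planar polarity genes were called higher, 0 of the other YAP and TAZ targets were called higher and 0 lower, and 1 other CCN gene (Ccn3) was called higher. Leaving out 1 pool gave 1 to 2 higher planar polarity genes, 1 to 2 higher and 0 to 1 lower YAP and TAZ targets, and 2 higher CCN genes each time. Differences near 0 changed sign without ever passing: Dchs1 was -0.0225 with quantile normalization and -0.0289 with median centring, Wwtr1 0.0014 and Amotl2 0.0122 with array weights. Leaving out 1 pool gave -0.1362 to -0.0279 for Fjx1, -0.0871 to 0.0557 for Fat1, -0.0264 to 0.0309 for Dchs1, -0.0382 to 0.0257 for Wwtr1, -0.0024 to 0.2082 for Ankrd1 and -0.0538 to 0.0363 for Amotl2. The causes were not tested.

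The labels give both groups the same replicate numbers. Deviations of same-numbered pools from their group means correlated by 0.125, 0.0677 and 0.0533 across genes for numbers 1, 2 and 3, which does not show that the numbers pair the pools, although each of the 6 pools correlated best with its own number. With the replicate block 381 genes were higher and 158 lower, 0 of the 10 genes were called, and 2 planar polarity genes (Lix1 and Lix1l, adjusted p = 0.0414 for Lix1l) and 2 of the other YAP and TAZ targets (Ccdc80 and Tgfb2, adjusted p = 0.0361 for Tgfb2) were higher.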
